A study of Mus musculus with 6 samples.

Results

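DNA repair genes and the gene for bleomycin hydrolase were followed through 6 RNA-seq libraries of mouse alveolar macrophages, the phagocytes that live in the air spaces of the lung. The genes were taken from a list of 34 symbols grouped by their known role, and all 34 were found among the 11789 genes of the expression table. The tested libraries A20-1, A20-3 and A20-4 came from C57BL/6 mice labelled A20 conditional knockout (A20 cKO), and BLM1, BLM2 and BLM3 are taken as those of C57BL/6 mice labelled wild type (WT), since only the other 3 names carry A20. All 6 came from the lungs of mice exposed to an agent abbreviated BLM, the usual abbreviation of bleomycin in mouse lung work, although the labels do not spell it out. No unexposed library was analysed here, so a response to the exposure itself could not be measured. No source used here gives the dose, the day, the Cre driver, the deleted exons or any pooling of animals. The p-values therefore reflect the spread among 3 libraries a group, part of which may be technical.

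Bleomycin is a glycopeptide drug that, with iron and oxygen, attacks deoxyribose and leaves strand breaks and damaged bases in DNA. Breaks through both strands are sensed by the MRN complex and the kinase ATM and closed by end joining or by homologous recombination, while breaks in a single strand and oxidised bases go through base excision repair. Nucleotide excision repair cuts out bulky lesions, and mismatch repair corrects copying errors. Bleomycin hydrolase, encoded by Blmh, is a cytosolic cysteine protease that inactivates the drug, and low activity in the lung is a textbook reason for the organ's sensitivity to it.

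The 34 genes fell into 19 of strand-break repair and its signalling, 13 of excision repair, the mismatch repair gene Msh6, and Blmh. Values are FPKM, fragments scaled by transcript length and library size, as deposited by the authors. The comparison used limma (two-sided) on the log2(FPKM + 1) scale for the 10696 genes whose mean FPKM reached 1, and p-values were adjusted over all of them by the Benjamini-Hochberg method, with a threshold of 0.05. This left 30 of the 34 genes in the test. Chek1, Brca2, Fancd2 and Fanca lay below the minimum and are given as levels only.

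Markers of alveolar macrophages were present in all libraries, with Chil3 at 3269 to 5471 FPKM in the A20 cKO libraries and 2998 to 4765 FPKM in the WT libraries. Over the 12 genes of that list the log2 difference was 0.72 at the median. Of the 12, 1 was called, against 1.10% of all genes tested. It was Marco, which was lower, at 8.43 ± 3.57 FPKM in the A20 cKO libraries and 32.2 ± 5.66 FPKM in the WT libraries (SD, n = 3 each, adjusted p = 0.0466 in limma). Markers of other cells were unevenly spread. The 8 neutrophil genes in the table summed to 87.7 to 116 FPKM in the A20 cKO libraries and to 137, 134 and 2798 FPKM in BLM1, BLM2 and BLM3, with Ly6g at 0 in 4 of the 6 libraries and 2.25 FPKM in BLM3. The 7 B cell genes summed to 13.6 to 24.2 FPKM in the A20 cKO libraries and to 102, 11.9 and 90.7 FPKM in BLM1, BLM2 and BLM3, and the 10 lung epithelial genes to 317 to 411 FPKM in the A20 cKO libraries against 97.8 to 229 FPKM in the WT libraries. The 8 T cell genes summed to 205 to 223 FPKM in the A20 cKO libraries and 147 to 277 FPKM in the WT libraries. The 10 genes of monocytes and recruited macrophages summed to 266 to 418 FPKM in the A20 cKO libraries against 1142 to 1362 FPKM in the WT libraries. That sum runs over all entries of these symbols, of which 11 were tested and 4 were called lower, against 91 of all 10696 genes tested. Whether these other cells took part in the repair gene values was not tested. Tnfaip3, which encodes A20, was not detectably lower in the libraries labelled knockout (9.39 ± 3.18 FPKM, against 9.42 ± 10.6 FPKM in the WT libraries, SD, n = 3 each). It had 8.44, 12.9 and 6.80 FPKM in A20-1, A20-3 and A20-4, against 4.47, 2.18 and 21.6 FPKM in BLM1, BLM2 and BLM3. BLM1 and BLM2 thus lay below every A20 cKO library, and BLM3 lay above them all. The level of this gene did not bear out the assignment of columns to groups. Every direction given here is therefore one between libraries as labelled. BLM3 stood apart, correlating with BLM1 and BLM2 at only 0.925 and 0.913 across genes. Values without it are given beside some results, but not beside all that it moved.

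To show what kind of promoters these genes have, 60 bases upstream of the RefSeq start (GRCm38.p6, plus strand in each case) are given for 4 genes whose promoter holds an E2F-type motif, the kind of element bound by the factors that switch on genes for DNA replication, and for Blmh, whose promoter window holds none. Capitals mark the motif.
Chek2, chr5:110839805-110839864: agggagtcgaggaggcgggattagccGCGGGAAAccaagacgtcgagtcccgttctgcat
Mdc1, chr17:35841438-35841497: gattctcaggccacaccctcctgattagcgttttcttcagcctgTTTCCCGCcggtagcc
Brca2, chr5:150522427-150522486: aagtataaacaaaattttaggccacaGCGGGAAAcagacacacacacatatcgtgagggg
Xrcc6, chr15:82016297-82016356: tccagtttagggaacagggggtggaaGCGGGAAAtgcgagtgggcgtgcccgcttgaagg
Blmh, chr11:76945596-76945655: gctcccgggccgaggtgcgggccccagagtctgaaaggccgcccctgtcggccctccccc
The motif was searched on both strands as TTTCCCGC, TTTCGCGC, TTTGCCGC and TTTGGCGC in windows of 300 bases, 250 before and 50 from the start on. Of the 34 genes, 26 had a window in the RefSeq table and 6 of these (23.1%) held a match, namely Chek2, Mdc1, Brca2, Xrcc6, Lig1 and Msh6, with the last 2 matches lying just after the start. Of all 27025 genes with a window, 2.60% held a match, of 23 genes of a list of cycling cells, 30.4%, and of 74 genes of a wider list of repair genes, 9.46%. A match describes the letters only, and no match in Blmh says only that these letters are not in its window. The stretches shown for Blmh and Xrcc6 lie inside the loci of the expression table, which begin further upstream, at 76924809 and 81987835. Their windows thus do not cover the outermost start of the gene as measured here.

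Blmh (ENSMUSG00000020840, GRCm38 chromosome 11, 76924809 to 76987379, plus strand) had 5.95, 5.59 and 6.04 FPKM in A20-1, A20-3 and A20-4, against 5.79, 5.80 and 5.24 FPKM in BLM1, BLM2 and BLM3. The groups overlapped and the whole range over 6 libraries was narrow. The means were 5.86 ± 0.238 FPKM in the A20 cKO libraries and 5.61 ± 0.322 FPKM in the WT libraries (SD, n = 3 each). The log2 difference, 0.054 ± 0.096 (SE), had an adjusted p of 0.780 in limma. By exact permutation, two-sided, p was 0.4, and 3 against 3 libraries cannot go below 0.1. The 95% interval of the log2 difference ran from -0.18 to 0.28, the narrowest of the 30 genes tested, so a change of the size of 1 log2 unit in either direction lay outside it. Among the 34 genes Blmh ranked at place 15 by mean level, and at percentile 45.6 of all genes in the table.

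No repair gene passed the threshold in either direction. Of the 30 genes tested, 0 were called by limma (adjusted p under 0.05), against 1.10% of all genes tested (27 higher and 91 lower). Without BLM3, 0 of the 30 were called, against 3.84% of all genes. Libraries were also weighted in limma, with weights estimated from these same 6 libraries, at 6.09 for BLM1, 0.728 for BLM2 and 0.229 for BLM3. The WT side then rested mostly on BLM1. In this setting 4 were called (Xpc, Mdc1, Chek2 and Lig1, all higher in the A20 cKO libraries, 13.3% of the 30), against 18.1% of all genes. Without weights, at an unadjusted p under 0.05 there were 3 (10%), Xpc, Mdc1 and Chek2, against 20.3% of all genes tested. In 6 of the 30 genes the 3 A20 cKO values all lay above the 3 WT values, and in 1 gene all lay below, which is 23.3% of the 30, against 29.0% of all genes tested (15.9% above and 13.1% below). The 95% interval of the log2 difference lay within -1 to 1 for 30 of 30 genes, against 8868 of all 10696 genes tested. It lay within -0.5 to 0.5 for 21 of the 30, against 4221 of all genes tested. For the 30 genes it reached 0.23 to 0.52 to either side of the estimate. The log2(FPKM + 1) scale compresses changes of low genes, so these bounds say little for genes near 1 FPKM, such as Brca1, Fanci and Atr. The differences themselves ran from -0.21 for Ogg1 to 0.54 for Xpc. They were positive in 23 of 30 genes (76.7%), against 52.9% of all genes tested, with a median of 0.11 beside 0.021 over all genes.

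**Figure D1:**
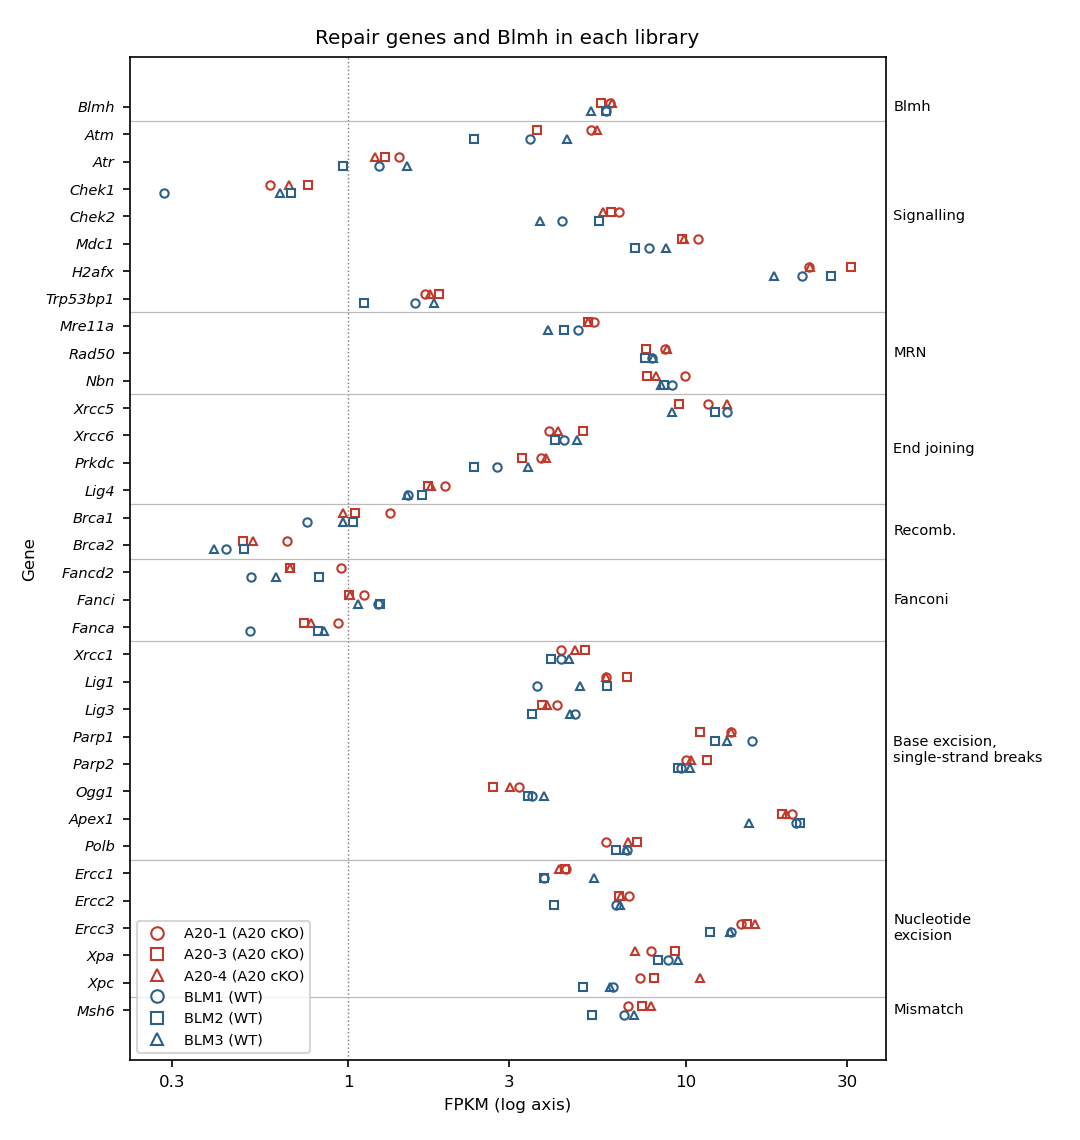
FPKM (log axis) of the 34 genes in each library, grouped by pathway, with A20 cKO libraries in red above WT libraries in blue and the dotted line at the minimum mean of 1 FPKM. H2afx is the highest gene, at 18.2 to 30.9 FPKM, Brca2 the lowest, at 0.400 to 0.657 FPKM, and the groups overlap for most genes.

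The strand-break genes spanned the widest range of levels. H2afx, which encodes the histone variant phosphorylated around breaks, was the highest of the 34 genes, with 23.2, 30.9 and 23.4 FPKM in A20-1, A20-3 and A20-4, against 22.1, 26.9 and 18.2 FPKM in BLM1, BLM2 and BLM3. Its groups overlapped, and the highest library of each group was A20-3 and BLM2. Other H2A genes resemble it, so reads could have been split between them.

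Mdc1 (GRCm38 chromosome 17, 35841515 to 35859670, plus strand), the scaffold that binds the phosphorylated form of that histone, had 10.8, 9.75 and 9.90 FPKM in A20-1, A20-3 and A20-4, against 7.79, 7.05 and 8.76 FPKM in BLM1, BLM2 and BLM3. Every A20 cKO library was above every WT library. The means were 10.2 ± 0.583 FPKM in the A20 cKO libraries and 7.87 ± 0.854 FPKM in the WT libraries (SD, n = 3 each), which gave a log2 difference of 0.34 ± 0.11 (SE, with limma's adjusted p at 0.175). Without BLM3 it was 0.41 (adjusted p = 0.0963).

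Chek2 (chromosome 5, 110839979 to 110874145, plus strand) encodes the checkpoint kinase downstream of ATM. It had 6.33, 5.99 and 5.67 FPKM in A20-1, A20-3 and A20-4, against 4.29, 5.54 and 3.71 FPKM in BLM1, BLM2 and BLM3. The groups did not overlap, but BLM2 came close to A20-4. The log2 difference was 0.36 ± 0.14 (SE, with limma's adjusted p at 0.231), and 0.25 (adjusted p = 0.319) without BLM3, its lowest library. Chek1, the kinase downstream of ATR, was far lower, at 0.587, 0.759 and 0.665 FPKM in A20-1, A20-3 and A20-4, against 0.284, 0.674 and 0.626 FPKM in BLM1, BLM2 and BLM3. Per length, Chek2 was thus 5.92 to 15.1 times as high as Chek1 within each library.

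Of the apical kinases, Atm likewise stood above Atr. Atm had 5.24, 3.63 and 5.44 FPKM in A20-1, A20-3 and A20-4, against 3.45, 2.36 and 4.45 FPKM in BLM1, BLM2 and BLM3, with a log2 difference of 0.40 ± 0.22 (SE, with limma's adjusted p at 0.345) and overlapping groups. It was 0.21 without BLM2, its lowest library, and 0.56 without BLM3. Atr, the kinase that answers stalled replication, had 1.20 to 1.41 FPKM in the A20 cKO libraries and 0.966 to 1.49 FPKM in the WT libraries, so Atm was 2.44 to 4.55 times as high in every library. Trp53bp1, whose product steers breaks towards end joining, had 1.69 to 1.85 FPKM in the A20 cKO libraries and 1.11 to 1.80 FPKM in the WT libraries.

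In the MRN complex, which holds broken ends and activates ATM, Nbn had 7.66 to 9.94 FPKM in the A20 cKO libraries and 8.46 to 9.08 FPKM in the WT libraries, and Rad50 had 7.63 to 8.82 FPKM in A20 cKO and 7.55 to 8.01 FPKM in WT. Both sets overlapped. The nuclease gene Mre11a was lower per length than either partner in 6 of 6 libraries, with 5.33, 5.14 and 5.13 FPKM in A20-1, A20-3 and A20-4, against 4.79, 4.36 and 3.89 FPKM in BLM1, BLM2 and BLM3. The A20 cKO libraries were tightly grouped above all WT libraries, with a log2 difference of 0.22 ± 0.11 (SE, with limma's adjusted p at 0.298). The ratio of Nbn to Mre11a was 1.65 ± 0.193 in the A20 cKO libraries and 2.02 ± 0.142 in the WT libraries (SD, n = 3 each).

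Among the end-joining genes, the Ku subunits differed in level. Xrcc5, for Ku80, had 9.53 to 13.3 FPKM in the A20 cKO libraries and 9.07 to 13.3 FPKM in the WT libraries, while Xrcc6, for Ku70, had 3.92 to 4.96 FPKM in A20 cKO and 4.08 to 4.74 FPKM in WT. Xrcc5 was 1.91 to 3.18 times as high as its partner, with a mean ratio of 2.69 ± 0.676 in the A20 cKO libraries and 2.64 ± 0.633 in the WT libraries (SD, n = 3 each). Their log2 differences were 0.0024 ± 0.18 and -0.016 ± 0.12 (SE). Prkdc, the catalytic subunit of DNA-dependent protein kinase, had 3.72, 3.28 and 3.84 FPKM in A20-1, A20-3 and A20-4, against 2.75, 2.35 and 3.40 FPKM in BLM1, BLM2 and BLM3, where only BLM3 reached into the A20 cKO range (0.27 ± 0.14, SE, with limma's adjusted p at 0.305). Lig4, the ligase of this pathway, had 1.72 to 1.93 FPKM in the A20 cKO libraries and 1.496 to 1.65 FPKM in the WT libraries, which did not overlap (adjusted p = 0.4996 in limma).

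The recombination and Fanconi genes lay at the bottom of the range. Brca1 had 0.965 to 1.33 FPKM in the A20 cKO libraries and 0.753 to 1.03 FPKM in the WT libraries. Brca2, a mediator of recombination, was the lowest of the 34 genes, with 0.657, 0.487 and 0.522 FPKM in A20-1, A20-3 and A20-4, against 0.434, 0.492 and 0.400 FPKM in BLM1, BLM2 and BLM3. Fanci, a member of the pair that is ubiquitinated at crosslinks, had 1.00 to 1.11 FPKM in the A20 cKO libraries and 1.07 to 1.24 FPKM in the WT libraries, and its partner Fancd2 had 0.669 to 0.948 FPKM in A20 cKO and 0.515 to 0.820 FPKM in WT. Fanca, of the core complex, had 0.737 to 0.932 FPKM in A20 cKO and 0.511 to 0.845 FPKM in WT.

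Excision repair held the member with the largest difference. Xpc (chromosome 6, 91489305 to 91515888, minus strand), the sensor of global nucleotide excision repair, had 7.30, 8.02 and 11.01 FPKM in A20-1, A20-3 and A20-4, against 6.08, 4.95 and 5.95 FPKM in BLM1, BLM2 and BLM3. All A20 cKO libraries were above all WT libraries, and A20-4 stood above the rest. The means were 8.78 ± 1.97 FPKM in the A20 cKO libraries and 5.66 ± 0.619 FPKM in the WT libraries (SD, n = 3 each), which gave a log2 difference of 0.54 ± 0.16 (SE, with limma's adjusted p at 0.150), with a 95% interval of 0.14 to 0.93 before adjustment for the number of genes. Its value was 0.57 (adjusted p = 0.137) without BLM3.

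The helicase genes of transcription factor TFIIH differed less. Ercc3, for XPB, had 14.5, 15.1 and 16.03 FPKM in A20-1, A20-3 and A20-4, against 13.6, 11.8 and 13.5 FPKM in BLM1, BLM2 and BLM3, with no overlap and a log2 difference of 0.22 ± 0.10 (SE, with limma's adjusted p at 0.289). Ercc2, for XPD, had 6.34 to 6.78 FPKM in the A20 cKO libraries and 6.22, 4.07 and 6.39 FPKM in BLM1, BLM2 and BLM3. Xpa, the damage verifier, had 7.06 to 9.27 FPKM in the A20 cKO libraries and 8.24 to 9.47 FPKM in the WT libraries, and Ercc1, of the nuclease that cuts 5′ of a lesion, had 4.21 to 4.42 FPKM in A20 cKO and 3.81 to 5.35 FPKM in WT. Per length, Xpc exceeded Xpa in A20-4 only.

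Base excision and single-strand break repair showed mixed directions. Apex1, the endonuclease at abasic sites, was the second highest gene, at 19.2 to 20.7 FPKM in the A20 cKO libraries and 15.4 to 21.7 FPKM in the WT libraries. Parp1, the main sensor of single-strand breaks, had 13.6, 11.02 and 13.6 FPKM in A20-1, A20-3 and A20-4, against 15.7, 12.2 and 13.2 FPKM in BLM1, BLM2 and BLM3, and its relative Parp2 had 10.04 to 11.6 FPKM in A20 cKO and 9.50 to 10.3 FPKM in WT. Both pairs of groups overlapped.

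Lig1, the ligase of replication and long-patch repair, had 5.81, 6.68 and 5.78 FPKM in A20-1, A20-3 and A20-4, against 3.63, 5.82 and 4.84 FPKM in BLM1, BLM2 and BLM3. BLM1 and BLM3 lay below all A20 cKO libraries and BLM2 within their range, and the log2 difference was 0.31 ± 0.16 (SE, with limma's adjusted p at 0.318). Without BLM1 it was 0.17, and with the library weights that favour BLM1 it was 0.54. Ogg1, the glycosylase for oxidised guanine, was the member with the lowest difference, with 3.19, 2.68 and 3.02 FPKM in A20-1, A20-3 and A20-4, against 3.50, 3.39 and 3.81 FPKM in BLM1, BLM2 and BLM3. All 3 of its A20 cKO values were below all WT values, by -0.21 ± 0.11 (SE, with limma's adjusted p at 0.324). The scaffold Xrcc1 (4.27 to 5.02 FPKM in A20 cKO and 3.99 to 4.51 FPKM in WT), the ligase Lig3 (3.75 to 4.15 FPKM in A20 cKO and 3.49 to 4.70 FPKM in WT) and the polymerase Polb (5.81 to 7.14 FPKM in A20 cKO and 6.19 to 6.69 FPKM in WT) overlapped.

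Msh6 (chromosome 17, 87975050 to 87990883, plus strand), which helps to recognise base mismatches, had 6.76, 7.41 and 7.89 FPKM in A20-1, A20-3 and A20-4, against 6.54, 5.26 and 7.02 FPKM in BLM1, BLM2 and BLM3. Only BLM3 reached into the A20 cKO range. The means were 7.35 ± 0.569 FPKM in the A20 cKO libraries and 6.27 ± 0.907 FPKM in the WT libraries (SD, n = 3 each), and the log2 difference was 0.21 ± 0.13 (SE, with limma's adjusted p at 0.402, 95% interval -0.10 to 0.51).

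**Figure D2:**
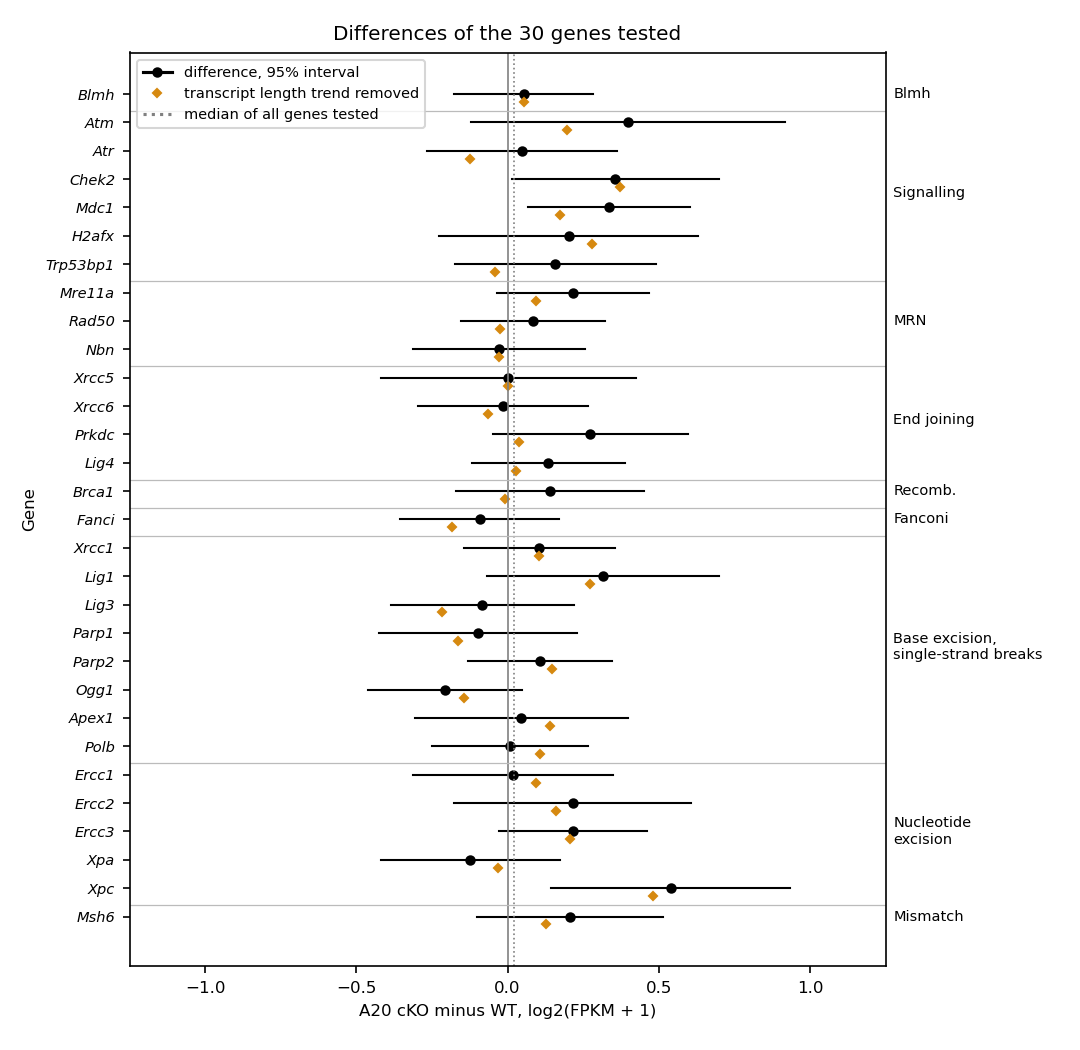
Log2 difference of A20 cKO minus WT libraries for the 30 genes tested (black points, with 95% intervals as bars), grouped by pathway, with the same difference after removal of the transcript length trend (orange diamonds) and the median of all genes tested (dotted line, 0.021). Intervals of Xpc, Mdc1 and Chek2 lie above 0 before adjustment for the number of genes, and the orange diamonds of long genes such as Atm, Prkdc and Trp53bp1 lie left of their black points.

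Set side by side, the 15 strand-break genes tested had a median log2 difference of 0.14 with 12 positive, the 13 excision genes a median of 0.046 with 9 positive, and the single mismatch gene 0.21, beside 0.021 over all genes. This order was not stable. Without BLM3 the medians were 0.13 for the strand-break genes and 0.14 for the excision genes, so that the excision genes were no longer the lower class. The libraries also differed by transcript length. Over all genes, transcripts longer than 8000 bases had a median log2 deviation from the gene mean of 0.17, 0.013 and 0.11 in A20-1, A20-3 and A20-4, against -0.038, -0.20 and -0.043 in BLM1, BLM2 and BLM3. Transcripts of up to 1500 bases had -0.12, 0.015 and -0.097 in the A20 cKO libraries, against 0.037, 0.092 and 0.060 in the WT libraries. The median difference between groups thus went with length, at -0.13 over the 1705 shortest and 0.20 over the 503 longest. Strand-break genes have long transcripts, with a median of 5153 bases, against 2528 bases for the excision genes, and Prkdc (12647), Atm (9819), Trp53bp1 (9621) and Atr (8102) are in the longest class.

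With this trend removed from each library, an alternative chosen after seeing the data, the strand-break median was 0.0010 with 8 of 15 positive, the excision median 0.11 with 9 of 13 positive, and Msh6 had 0.13. In this setting the excision genes had the higher median. Prkdc had 0.038 in place of 0.27, Mdc1 0.17 in place of 0.34, Mre11a 0.094 in place of 0.22, and Atm 0.20 in place of 0.40. Chek2 had 0.37 and Xpc 0.48, close to their values before. Positive differences numbered 19 of 30, against 49.8% of all genes, and 0 of the 30 genes were called (0.889% of all genes tested). What caused the length trend, and its part in these differences, was not tested.

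**Figure D3:**
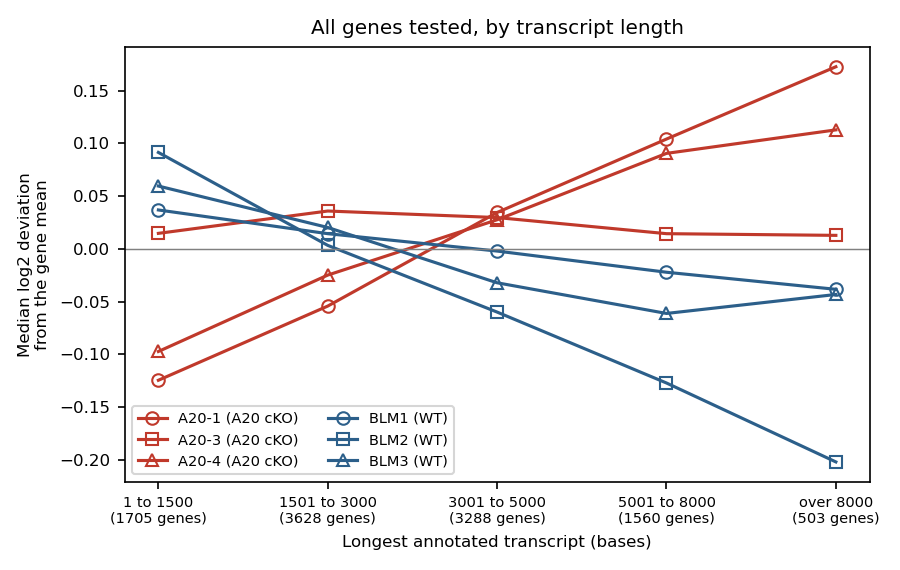
Median log2 deviation from the gene mean in each library (A20 cKO red, WT blue) for all genes tested, in 5 classes of the longest annotated transcript in bases. Long transcripts are high in A20-1 and A20-4 (0.17 and 0.11 over 8000 bases) and lowest in BLM2 (-0.20), and A20-3 stays near 0.

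BLM2 was the lowest WT library for 19 of the 34 genes (55.9%), against 38.6% of all genes tested, and Atm, Atr, Mdc1, Trp53bp1, Prkdc, Msh6, Xpc and Ercc2 were among them. The 34, like the 9 genes named next, include Chek1, Brca2, Fancd2 and Fanca, which lie below the minimum used for the shares over all genes. None of these was lowest in BLM2. A different set peaked in the same library. Of 9 genes known to be expressed with DNA replication (Chek1, H2afx, Brca1, Brca2, Fancd2, Fanci, Fanca, Lig1 and Msh6, a set named after values were seen and given without a test), 7 were highest among WT libraries in BLM2, against 27.2% of all genes tested, with Fanca and Msh6 highest in BLM3. Of the 7, Chek1, Brca2 and Fancd2 lie below the minimum used for that share. Brca2 (0.492 FPKM, against 0.434 FPKM in BLM1) and Fanci (1.24 FPKM, against 1.22 FPKM in BLM1) led by little. Over all 34 genes, 11 (32.4%) were highest in BLM2, among them Blmh, Chek2, Lig4 and Apex1, which are outside the set. In a list of 28 genes of cycling cells, 27 were highest in BLM2 among WT libraries. The list summed to 217, 229 and 201 FPKM in A20-1, A20-3 and A20-4, against 165, 237 and 166 FPKM in BLM1, BLM2 and BLM3. Of its 27 genes tested, 0 were called (1.10% of all genes) and the median log2 difference was 0.17, positive in 21. The median was 0.10 without BLM3, and with library weights 6 of the 27 were called (22.2%, against 18.1% of all genes). In bulk libraries, fewer cycling cells and less RNA per cell cannot be told apart, and the part of cycling cells in the repair gene values was not tested.

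**Figure D4:**
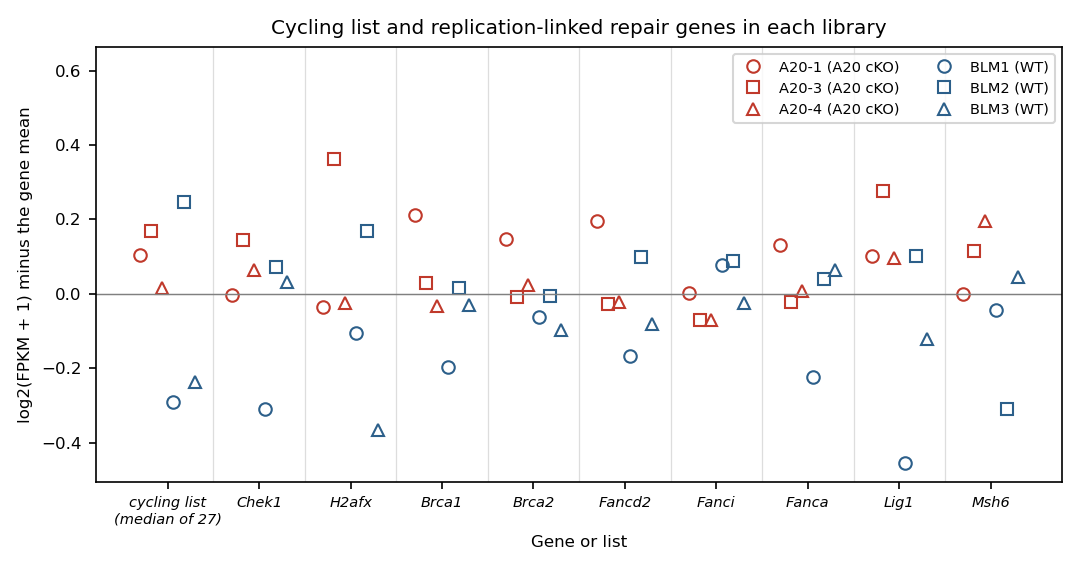
Deviation of log2(FPKM + 1) from the gene mean in each library, A20 cKO in red to the left of WT in blue, for the median of 27 cycling genes and for 9 replication-linked repair genes. BLM1 and BLM3 are the lowest libraries for the cycling median (-0.29 and -0.24), and BLM2 is the highest WT library for 7 of the 9 genes.

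A wider list of 92 further repair genes gave the same count. The table held 90 of them, of which 71 were tested, and 0 were called, against 1.10% of all genes. At an unadjusted p under 0.05 there were 11 (15.5%), against 20.3% of all genes, and with library weights 9 were called (12.7%, against 18.1%). The median log2 difference was -0.0092, with 33 positive and 38 negative. Positive differences numbered 7 of 8 in signalling (median 0.19), 4 of 4 in recombination (0.15), 2 of 10 in end joining (-0.10) and 2 of 5 among Fanconi genes (-0.084). They numbered 8 of 12 in base excision and single-strand break repair (0.068), 4 of 18 in nucleotide excision (-0.12), 4 of 9 in lesion bypass and direct reversal (-0.028) and 2 of 5 in mismatch repair, whose median of -0.095 was opposite in sign to the difference of Msh6.

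The smallest p in the wider list belonged to Mbd4, a glycosylase for thymine and uracil paired with guanine, with 3.002, 3.95 and 3.67 FPKM in A20-1, A20-3 and A20-4, against 2.19, 2.04 and 2.31 FPKM in BLM1, BLM2 and BLM3. Its groups did not overlap, and the log2 difference was 0.51 ± 0.12 (SE, with limma's adjusted p at 0.103). Wrn, a helicase of the RecQ family, had 7.69, 6.57 and 7.19 FPKM in A20-1, A20-3 and A20-4, against 5.35, 4.86 and 4.97 FPKM in BLM1, BLM2 and BLM3 (0.43 ± 0.10, SE, with limma's adjusted p at 0.104), or 0.29 with the length trend removed. Gtf2h5, the smallest subunit of TFIIH, had 6.63, 7.90 and 6.19 FPKM in A20-1, A20-3 and A20-4, against 9.13, 9.80 and 9.41 FPKM in BLM1, BLM2 and BLM3, a log2 difference of -0.41 ± 0.11 (SE, with limma's adjusted p at 0.130). None of these passed the threshold. With library weights all 3 did, with adjusted p of 0.0152 for Mbd4, 0.0241 for Wrn and 0.0297 for Gtf2h5 in limma. That setting called 18.1% of all genes tested, and the 3 were picked for their small p in these same data.

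The genes of highest level in 6 pathways of the wider list overlapped between groups. Ddb1, part of a ubiquitin ligase that acts in nucleotide excision repair, had 66.6 to 86.5 FPKM in the A20 cKO libraries and 52.9 to 76.8 FPKM in the WT libraries, above every one of the 34 genes. Rad9a, of the checkpoint clamp, had 15.6 to 20.2 FPKM in A20 cKO and 13.9 to 15.8 FPKM in WT, and Rbbp8, the resection factor CtIP, 8.68 to 9.65 FPKM in A20 cKO and 8.59 to 8.93 FPKM in WT. Fen1, the flap nuclease, had 4.22, 9.29 and 9.59 FPKM in A20-1, A20-3 and A20-4, against 4.98, 11.6 and 4.91 FPKM in BLM1, BLM2 and BLM3, a split found within both groups, and an antisense gene shares 1908 bases of its exon. Alkbh2, which reverses alkylated bases, had 5.48 to 5.85 FPKM in A20 cKO and 5.26 to 6.62 FPKM in WT, and Fance, of the Fanconi core complex, 3.38 to 4.08 FPKM in A20 cKO and 3.79 to 4.43 FPKM in WT.

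By level, 6 of the 34 genes had a mean FPKM of 10 or more, 24 lay from 1 to under 10, and 4 lay under 1. The order was H2afx, Apex1, Ercc3, Parp1, Xrcc5 and Parp2 at the top and Fanca, Fancd2, Chek1 and Brca2 at the bottom. Neighbours in this order overlapped in their library values in all but 1 of 33 pairs, the exception being Prkdc above Lig4. Of the 34 genes, 13 share at least 100 bases of an exon with a gene on the opposite strand, among them Trp53bp1, Lig3, Apex1, Fanci, Xrcc6, Lig1 and Mre11a. Use of strand in the counting is not given in the sources used here, so reads of such partners may be included in their levels.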

How the data were processed

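RNA was taken up in Trizol from flash-frozen alveolar macrophages and made into KAPA stranded libraries from 1 ug of total RNA, per the labels' protocols. The authors deposited FPKM for each gene in each library, as the file headers say. The submitters' processing notes name GRCm38 as genome build. No source used here names the aligner, the quantifier, the annotation release or the use of strand. Columns were assigned to groups by name (A20-1, A20-3 and A20-4 to A20 cKO, BLM1 to BLM3 to WT, the other group), while replicate numbers in the titles run differently. Sums of FPKM were 266094 to 294525 per library. Ratios between libraries of low genes showed no common steps (the most frequent ratio covered 0.512% of them), so depth could not be recovered and counting intervals are left out. No pair of libraries held identical values.

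Genes with mean FPKM of at least 1 (10696 kept, 1093 left out) were compared as log2(FPKM + 1) with limma 3.58.1 in R 4.3.3 (lmFit, eBayes with a trend), adjusted over all genes with Benjamini-Hochberg. Differences are A20 cKO minus WT, which understate the change of low genes. Exact permutation tests used scipy 1.17.1. The fit was tested on simulated data with known changes. Alternatives were other pseudocounts, minima, scalings, array weights, each library left out, and a lowess (span 0.3, statsmodels 0.14.6) of log2 deviations on the longest GENCODE M21 basic transcript, added after seeing the data (10684 genes). The members and lists were chosen with earlier results of these data known. Genes given singly are Blmh, Msh6, the 3 of smallest p in each class, the extremes by level and by difference, and, of the wider list, the 3 of smallest p and the highest of each pathway, some of which are not reported here. Others shown beside them were chosen after their values were seen. Promoters are from RefSeq (GRCm38.p6).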

Additional observations from a re-analysis of the deposited data

How the results depend on the processing

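The count of called repair genes was 0 under every alternative run but array weights, which called 4 (Xpc, Mdc1, Chek2 and Lig1, or 13.3% of the 30, against 18.1% of all genes tested). The genes tested were 30, except for 34 with no minimum mean FPKM and 17 at a minimum of 5. Over all genes tested the count was 118, with 75 at a minimum mean FPKM of 5 (which tests fewer genes) and 1934 with array weights, and 0 (without A20-3, where 1694 had an unadjusted p under 0.05) to 411 (without BLM3, 3.84%) when a library was left out. Without A20-1 it was 35, without A20-4 14 and without BLM1 4. The share of higher calls was 22.9% as deposited, 39.0% under TPM, 48.7% with array weights and 35.0% without BLM3. TPM moved the median of all genes by 0.083. With 1 library left out, members called stayed at 0, Blmh ran from 0.013 to 0.082 and Msh6 from 0.10 to 0.28.

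The strand-break median of 0.14 was 0.21 with a pseudocount of 0.1, 0.059 with 5, 0.28 when rescaled to TPM, 0.20 after quantile normalization, 0.0010 with the length trend removed, and 0.10 to 0.16 with a library left out. The excision median of 0.046 was 0.11 at a minimum of 5 FPKM, 0.13 under TPM, 0.11 with array weights and 0.11 with the length trend removed, and 0.040 to 0.14 with a library left out (0.14 without BLM3, where the strand-break median was 0.13). By construction, a larger pseudocount shrinks log2 differences, a smaller one widens them, and removal of the length trend lowers long genes. Rescaling to TPM raised all values with the pseudocount kept at 1, and it moved the median of all genes by 0.083. The cause of the other shifts was not tested.

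The sign turned in 10 of 30 genes, each within 0.16 of 0 to begin with. With the length trend removed, Atr had -0.13, Trp53bp1 -0.041, Rad50 -0.027 and Brca1 -0.0071. Under TPM, Nbn had 0.051 and Xrcc6 0.060. After quantile normalization, Xrcc5 had -0.015 and Polb -0.0011, and with array weights Xrcc5 had -0.15, Apex1 -0.078 and Polb -0.012. With a library left out, Atr had -0.040 (without BLM2), Apex1 -0.11 (without BLM3) and Ercc1 -0.049 (without BLM1 or BLM2). Nbn had 0.042 without A20-3 and 0.00096 without A20-4, Xrcc5 -0.012, -0.10 and -0.15 without A20-1, A20-4 and BLM3, and Xrcc6 0.043, 0.0066 and 0.030 without the same 3. Polb had -0.047, -0.011 and -0.023 without A20-3, A20-4 and BLM2. No paired analysis was possible because the column numbers are not the replicate numbers of the titles. With no read depth, the precision of genes near 1 FPKM cannot be stated.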
